A study of Mus musculus with 18 samples.

Results

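Mouse bone marrow derived macrophages were compared after 1 h of 100 nM dexamethasone, a synthetic glucocorticoid, with the same kind of cells at baseline. The comparison used 6 of the 18 arrays of a time series, the 3 titled as 1 h of dexamethasone and the 3 titled as baseline. The members were chosen by these titles alone. Per the labels' protocols, marrow of 3 male C57BL/6 mice aged 10 weeks was grown for 1 week in medium holding 10% serum and 10000 U/ml of the growth factor CSF1 (recombinant, human), and the cells were replated in both. Both groups therefore share strain, sex, age, serum and CSF1. The baseline group carried no dexamethasone, and whether it received a vehicle, or when its cells were taken relative to the treated cells, is not given in the sources used here. The remaining 4 groups, treated for 2, 4, 10 or 24 h, entered the fit to share 1 estimate of the spread, and their levels are given beside those at 1 h.

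Glucocorticoids act through a cytoplasmic receptor, the product of Nr3c1, which chaperones hold until hormone binds it. The receptor then enters the nucleus, binds DNA at palindromic response elements or meets other transcription factors such as AP-1 and NF-kappaB there, and alters transcription. The first genes to change include signalling brakes and transcription factors, and in macrophages glucocorticoids are known for lowering inflammatory cytokines.

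After 1 h, 51 of 13190 tested genes differed from baseline, which is 0.387% of them, with 40 higher and 11 lower (0.303% and 0.0834%). A gene is called here where limma's adjusted p is under 0.05. The largest rises were those of Dusp1, Ddit4, Per1 and Tsc22d3, and the largest falls were those of Tnf and Ier3. By the role each product is known for, 15 of the called genes encode transcription factors or cofactors, 8 encode kinases or brakes on signalling, 7 act in inflammatory signalling or mRNA decay and 7 are receptors or surface proteins. A further 7 act in trafficking, ubiquitin transfer or the cytoskeleton, and 7 have other roles. Roles were given to the called genes only. How common each role is among all tested genes was not counted, so these numbers are a description. Only 10 of the 51 changed by 1 log2 unit or more, 9 upward and 1 downward, and 14 changed by less than 0.5. The smallest called change was 0.245, and the median standard error of the called genes was 0.0798. The median change of all tested genes was 0.00189. In these bulk cultures a fall or rise in cells of a type and in RNA per cell cannot be told apart.

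With the replicate number as a block in the fit, 93 genes were called, 0.705% of those tested, with 63 higher and 30 lower. All 51 genes were among them, and the 42 further genes were 23 higher and 19 lower. Array values below are log2 of the deposited intensity, given in the order of replicates 1, 2 and 3, and changes are log2 differences with limma's standard error over 3 arrays per group. In each of the 51 genes the 3 treated arrays lay on one side of the 3 baseline arrays. Among all tested genes, 5.05% had all 1 h arrays above all baseline arrays and 4.75% had them all below. Since the test chose the 51 genes, their complete separation adds no support.

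**Figure D1:**
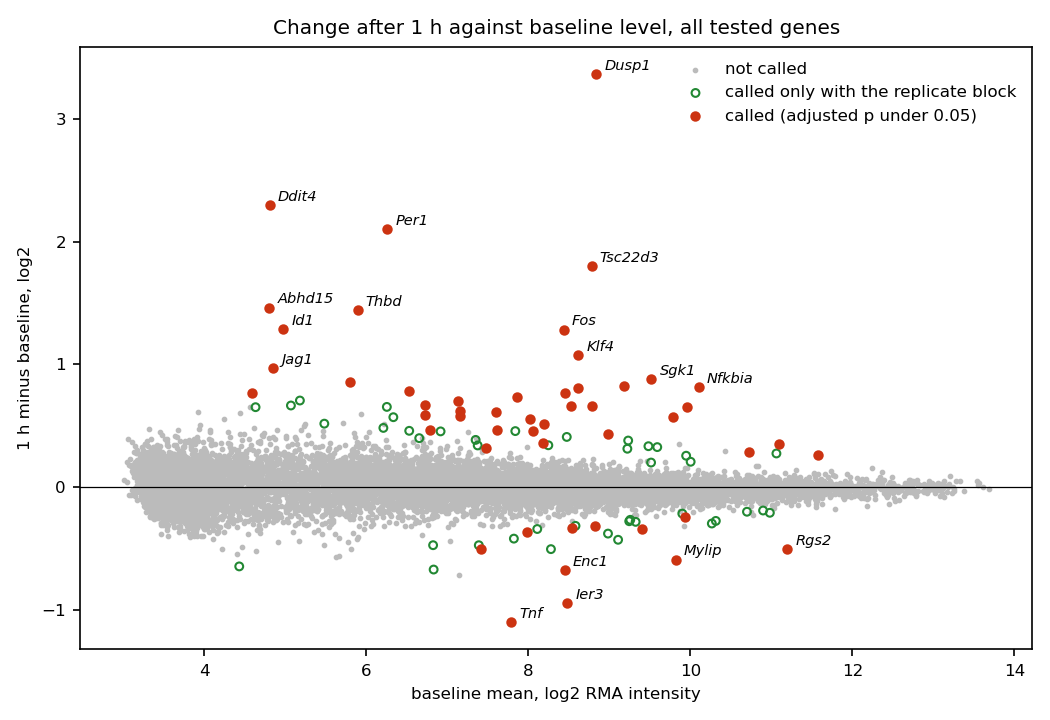
Each point is a tested gene, with its baseline mean (log2 RMA intensity) on the x axis and its log2 change at 1 h on the y axis. Filled red points are the 51 called genes and open green points the 42 genes called only with the replicate block. Rises reach 3.36 for Dusp1, and the lowest called value is -1.10 for Tnf.

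The labelled cell type was checked against its markers. Of 16 macrophage markers on the array, 15 lay above the background level of 3.81 log2, and Lyz1, at 3.72 at baseline, did not. The list's mean level was 10.905 to 11 on the baseline arrays and 10.927 to 10.96 on the 1 h arrays. None of the markers of macrophages or of 8 other cell types was called with or without the block. Markers of mast cells and basophils were all at or below background, 0 of 7 being above it. Of 10 neutrophil markers 7 were above background, with a mean level of 4.974 to 5.395 at baseline and 5.129 to 5.181 at 1 h. The brightest were S100a8, S100a9 and Ngp, at 8.66, 8.30 and 7.03 at baseline. Of 7 osteoclast markers 4 were above background, with a mean level of 5.279 to 5.508 at baseline and 5.241 to 5.424 at 1 h. The brightest of them stood at 9.16 at baseline. In each of the remaining lists 2 or 3 members were above background. The brightest member of those remaining lists was Blnk of the B cell list, at 11.16 at baseline. The Gapdh control probe sets at the 3' and 5' ends of the transcript differ more as RNA breaks down. That difference, 3' less 5', was 0.083, 0.023 and 0.063 log2 at baseline and 0.148, 0.154 and 0.193 at 1 h. These groups do not overlap. The exact two-sided permutation p was 0.1, the lowest value possible with groups of 3, and the adjusted value over both controls was 0.2. For Actb the means were 0.376 ± 0.019 and 0.40 ± 0.029 (SD, n = 3), with an exact permutation p of 0.3. The part of RNA quality in the results was not tested.

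The called genes were set against their promoters in the RefSeq table (build GRCm38.p6), which holds 250 bases before and 50 after each gene's start. Of the 51 genes, 41 have an entry there. The core of the glucocorticoid response element, spelled GNACANNNTGTNC, was searched on both strands and found in 1 of these 41 promoters, that of Sgk1. It occurs in 0.475% of all 32851 promoters and in 0.433% of the 10621 tested genes with an entry. The cyclic AMP response element, TGACGTCA, was found in 4 of 41, those of Dusp1, Pex13, Rcan1 and Irf2bpl, against 1.79% of all promoters and 3.31% of tested genes. A kappaB site, GGGANTTTCC, was found in 1 of 41, on the opposite strand in Nfkbia, against 0.411% and 0.508%. No promoter of a called gene held more than 1 of these 3 motifs. A match describes letters in the window and is not a site of binding. The 4 stretches below show each motif in genes that rose, with 2 of the 3 such genes for the cyclic AMP response element (the other is Rcan1, with its match 167 bases before the start). Each is read 5′ to 3′ on the gene's strand with the match in capitals. The matches end 175, 19, 135 and 75 bases before the start of the gene in Sgk1 (chr10:21993662-21993754, plus strand), Nfkbia (chr12:55492648-55492716, minus strand), Dusp1 (chr17:26508568-26508655, minus strand) and Pex13 (chr11:23665919-23666006, minus strand).
Sgk1: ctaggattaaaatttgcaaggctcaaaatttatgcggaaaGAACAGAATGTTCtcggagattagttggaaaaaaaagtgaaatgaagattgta
Nfkbia: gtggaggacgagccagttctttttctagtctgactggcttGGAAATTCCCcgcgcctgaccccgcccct
Dusp1: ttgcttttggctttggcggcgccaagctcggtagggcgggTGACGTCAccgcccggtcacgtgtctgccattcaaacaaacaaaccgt
Pex13: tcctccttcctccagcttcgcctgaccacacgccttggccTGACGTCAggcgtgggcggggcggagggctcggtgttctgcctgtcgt

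Genes that restrain signalling held the largest change. Dusp1 encodes a nuclear phosphatase that removes the activating phosphates of p38 and JNK. Its arrays read 8.731, 8.735 and 9.032 at baseline and 12.176, 12.174 and 12.241 at 1 h. All 3 treated arrays stood far above each baseline array, and they lay closer together than the baseline arrays. Dusp1 rose by 3.36 ± 0.09, a 10.3-fold rise, with a limma adjusted p of 4.82e-18. Ddit4 encodes an inhibitor of mTOR complex 1. It read 5.322, 4.282 and 4.812 at baseline, with a wide spread, and 7.279, 6.884 and 7.148 at 1 h. The groups do not overlap, and replicate 2 was the lowest array in each. The rise was 2.30 ± 0.19, or 4.92-fold (limma adjusted p 1.62e-08).

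The other called kinases and brakes changed by less than 1 log2 unit. Sgk1, a serine/threonine kinase related to Akt whose promoter match is printed above, read 9.462, 9.622 and 9.472 at baseline and 10.379, 10.440 and 10.386 at 1 h. Its treated arrays were nearly alike, and its rise of 0.88 ± 0.05 had a limma adjusted p of 6.53e-11. Sla, an adaptor that dampens antigen receptor signalling, rose by 0.81 ± 0.06. The salt-inducible kinase Sik1 rose by 0.77 ± 0.14 and Stk17b, a kinase of the death-associated family, by 0.65 ± 0.06. Rcan1, an inhibitor of calcineurin, rose by 0.36 ± 0.08.

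Rgs2, which accelerates the shut-off of Gq signalling, was the only one of these 8 genes that fell. It read 11.259, 11.021 and 11.290 at baseline and 10.719, 10.621 and 10.709 at 1 h. Replicate 2 was again the lowest array of each group, and the highest treated array lay below the lowest baseline array. Rgs2 fell by 0.51 ± 0.08 (limma adjusted p 0.000351). Its second probe set gave -0.40, which was not called when every probe set was tested (limma adjusted p 0.119).

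Transcription factors and cofactors made up the largest role group among the called genes, with 12 higher and 3 lower. Per1, a repressor within the circadian clock, read 6.342, 6.359 and 6.055 at baseline and 8.439, 8.415 and 8.204 at 1 h. Replicate 3 was lowest in both groups, and the differences within replicate numbers 1, 2 and 3 were 2.10, 2.06 and 2.15. Per1 rose by 2.10 ± 0.10 (limma adjusted p 1.72e-13). Tsc22d3 encodes the leucine zipper protein GILZ, which binds and restrains AP-1 and NF-kappaB. It read 8.786, 8.849 and 8.701 at baseline and 10.686, 10.529 and 10.532 at 1 h, with no overlap. The rise was 1.80 ± 0.06 (limma adjusted p 1.12e-16), and a second probe set gave 2.16 ± 0.06. Another probe set of the gene, with a baseline mean of 3.73 that is below background, gave 0.29 ± 0.12 and was not called.

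Id1, which binds other helix-loop-helix factors and keeps them off DNA, read 5.253, 4.936 and 4.733 at baseline and 6.458, 6.121 and 6.211 at 1 h. All treated arrays were above all baseline arrays, with replicate 1 the highest in both groups. Id1 rose by 1.29 ± 0.16 (limma adjusted p 1.21e-05). Fos, a subunit of AP-1, read 8.346, 8.407 and 8.547 at baseline and 9.732, 9.706 and 9.717 at 1 h. The treated arrays differed among themselves by far less than they differed from baseline. Fos rose by 1.28 ± 0.10 (limma adjusted p 5.68e-09). Jdp2, a partner of the AP-1 family that represses transcription, rose by 0.70 ± 0.07.

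Among the Kruppel-like and related zinc finger factors, Klf4, Klf9 and Klf6 rose, 3 of 16 tested members of that list against 0.303% of all tested genes. None was called lower. The list also holds Zbtb16, Bcl6, Sp1, Sp3 and Sp4. Klf4, a factor linked to monocyte differentiation, read 8.380, 8.689 and 8.766 at baseline and 9.631, 9.710 and 9.733 at 1 h. In both groups replicate 1 was lowest, and the groups do not overlap. Klf4 rose by 1.08 ± 0.09 (limma adjusted p 4.07e-08), and a second probe set gave 0.93 ± 0.11. Klf9 rose by 0.76 ± 0.07 and Klf6 by 0.35 ± 0.06. Klf2, which was not called in either fit, stood at 0.45 ± 0.26.

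The remaining transcriptional regulators each changed by less than 1 log2 unit. Nfil3, a basic leucine zipper repressor that also acts on the clock, rose by 0.85 ± 0.15 (limma adjusted p 0.00265). The zinc finger factor Plagl2 rose by 0.59 ± 0.13, the CBP and p300 partner Cited2 by 0.57 ± 0.08 and Zfp472 by 0.32 ± 0.07. Zfp503, a zinc finger regulator, read 7.427, 7.451 and 7.375 at baseline and 6.930, 6.876 and 6.929 at 1 h. Both groups were tight and did not overlap, and Zfp503 fell by 0.51 ± 0.09 (limma adjusted p 0.00543). Sertad1, a transcriptional coregulator, fell by 0.33 ± 0.07 and Irf2bpl fell by 0.245 ± 0.054.

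In inflammatory signalling and mRNA decay, 5 genes rose and 2 fell. Tnf, an inflammatory cytokine, read 7.679, 7.738 and 7.939 at baseline and 6.576, 6.771 and 6.720 at 1 h. Every treated array was lower than every baseline array, and the lowest treated array was that of replicate 1. Tnf fell by 1.10 ± 0.10 (limma adjusted p 1.17e-07). Ier3, an immediate-early gene that responds to NF-kappaB, read 8.373, 8.538 and 8.512 at baseline and 7.463, 7.675 and 7.446 at 1 h. Replicate 2 was highest in both groups, with no overlap between them. Ier3 fell by 0.95 ± 0.10 (limma adjusted p 2.78e-06).

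Nfkbia encodes the inhibitor that holds NF-kappaB in the cytoplasm. It read 10.031, 10.207 and 10.067 at baseline and 10.841, 10.974 and 10.942 at 1 h. The lowest treated array was above the highest baseline array, and the rise was 0.82 ± 0.06 (limma adjusted p 5.68e-09). Zfp36l1 and Zfp36l2 bind AU-rich elements and speed mRNA decay, and Zc3h12c belongs to the Regnase family of RNA-degrading enzymes. Zfp36l1 rose by 0.82 ± 0.08, Zc3h12c by 0.58 ± 0.11 and Zfp36l2 by 0.26 ± 0.05. The deubiquitinase Otud1 rose by 0.79 ± 0.11.

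Receptors and surface proteins were mostly higher, 6 against 1. Thbd, or thrombomodulin, is a surface receptor for thrombin with anticoagulant action. It read 6.236, 5.665 and 5.768 at baseline and 7.344, 7.429 and 7.232 at 1 h. The baseline arrays spread more than the treated arrays, and all treated arrays were above them. Thbd rose by 1.45 ± 0.13 (limma adjusted p 5.9e-08). The Notch ligand Jag1 read 4.924, 5.125 and 4.496 at baseline and 6.077, 5.658 and 5.718 at 1 h. Its groups do not overlap but each is wide, and its rise of 0.97 ± 0.20 had a limma adjusted p of 0.0246.

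Of the 29 tested genes of G protein signalling and its receptors, 4 receptors rose and Rgs2 fell, beside 0.303% higher and 0.0834% lower among all tested genes. The proton-sensing receptor Gpr65 rose by 0.73 ± 0.08 and the oxysterol receptor Gpr183 by 0.52 ± 0.09. The prostaglandin E2 receptors Ptger2 and Ptger4, which raise cyclic AMP, rose by 0.62 ± 0.12 and 0.45 ± 0.08. Ptger2 was the more scattered of the pair, with 7.271, 7.421 and 6.786 at baseline against 7.833, 7.838 and 7.677 at 1 h. Ptger4 read 8.005, 8.109 and 8.061 at baseline and 8.562, 8.457 and 8.520 at 1 h, and neither gene's groups overlap. The lectin-like surface protein Clec2d fell by 0.32 ± 0.07.

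Genes of trafficking, ubiquitin transfer and the cytoskeleton moved in both directions, 4 upward and 3 downward. Enc1, an actin-binding kelch protein, read 8.590, 8.346 and 8.408 at baseline and 7.937, 7.738 and 7.641 at 1 h. Replicate 1 was highest in each group without overlap. Enc1 fell by 0.68 ± 0.12 (limma adjusted p 0.00211). Mylip, a ubiquitin ligase that directs the LDL receptor to degradation, read 9.730, 9.806 and 9.915 at baseline and 9.312, 9.185 and 9.185 at 1 h. All treated arrays were lower, and Mylip fell by 0.59 ± 0.09 (limma adjusted p 0.000278). Cdc42ep3, an effector of the GTPase Cdc42, fell by 0.34 ± 0.06. Arrdc3, an arrestin-domain protein, rose by 0.67 ± 0.12, and Cytip, which binds cytohesins, by 0.61 ± 0.09. Tagap rose by 0.55 ± 0.06 and the ring finger protein Rnf169 by 0.46 ± 0.07.

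Of the 7 genes with other roles, 6 rose. Abhd15, which encodes a protein with a hydrolase fold, read 4.740, 4.938 and 4.718 at baseline and 6.348, 6.071 and 6.366 at 1 h. The groups are well apart, and the rise was 1.46 ± 0.15 (limma adjusted p 4.51e-07). Pex13, part of the peroxisomal import machinery, rose by 0.66 ± 0.06, and Tigd2, derived from a transposase, also by 0.66 ± 0.06. Smaller rises were those of 1700017B05Rik at 0.46 ± 0.09, the p53-induced gene Trp53inp1 at 0.43 ± 0.07 and Slfn2 of the Schlafen family at 0.29 ± 0.05. Lratd2 fell by 0.36 ± 0.08.

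**Figure D2:**
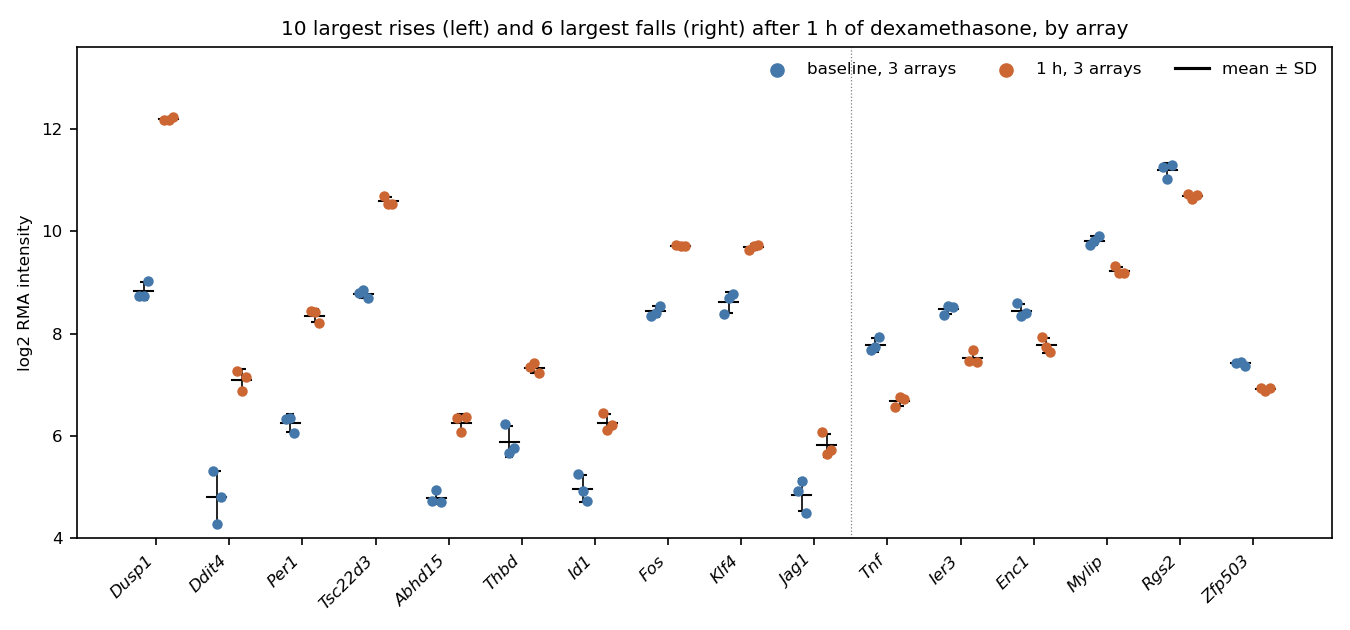
Log2 RMA intensity on each of the 3 baseline and 3 1 h arrays for the 10 largest rises (left of the dotted line) and the 6 largest falls (right); points are arrays in replicate order, bars the mean ± SD. The groups of all 16 genes are apart, from Dusp1 with a rise of 3.36 to Zfp503 with a log2 difference of -0.51.

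Gene lists drawn up by function put these changes beside the genes that did not pass. Of 30 tested glucocorticoid receptor targets, 8 rose (Dusp1, Ddit4, Per1, Tsc22d3, Klf4, Sgk1, Nfkbia and Klf9) and Rgs2 fell, beside 0.303% higher and 0.0834% lower among all tested genes. The median of the list was 0.11 against 0.00189 for all tested genes. The lists hold textbook targets, chosen with earlier results of these data known, so the count is a description. Fkbp5, a receptor chaperone and widely used glucocorticoid target, stood at 0.14 ± 0.07 (limma adjusted p 0.999), and Nr3c1 itself at -0.08 ± 0.08 (limma adjusted p 0.999). Mertk, a receptor for apoptotic cells, stood at 0.02 ± 0.09, and Mt1, a metallothionein, at 0.06 ± 0.05, neither of them called.

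The counts in the next lists stand beside 0.303% called higher and 0.0834% called lower among all tested genes. The rise of Dusp1 was the only call among 21 MAP kinase phosphatases and brakes, whose median was -0.02. Dusp6, which acts on ERK, was called only with the replicate block (0.26, limma adjusted p 0.0234 with it and 0.115 without). Among 19 clock genes Per1 and Nfil3 rose, while Bhlhe40 stood at -0.43 and was called only with the block (limma adjusted p 0.00177 against 0.0705). Ddit4 and Sgk1 were the calls among 21 genes of mTOR, PI3K and FoxO signalling. Of 25 immediate-early genes Fos rose and Ier3 fell, and the median was -0.07. The block added Egr2 (-0.67, limma adjusted p 0.0234) and Btg2 (-0.47, limma adjusted p 0.0452), for which the fit without it gave 0.269 and 0.203. Id1 was the call among 19 lineage factors and Trp53inp1 among 27 cell cycle genes.

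In the inflammatory lists that held a call, 1 to 3 members passed per list, beside 0.387% of all tested genes. The lists of cytokine and chemokine receptors, Toll-like receptor signalling and interferon-stimulated genes held no call and are described further below. Tnf was the call among 33 cytokines and chemokines, and their median was -0.03. Ccl2 and Ccl3, chemokines that attract monocytes, stood at -0.06 ± 0.10 and -0.02 ± 0.12. Cxcl2, which attracts neutrophils, stood at 0.46 and was called only with the block (limma adjusted p 0.0102 against 0.999). Of 21 genes of NF-kappaB and its feedback Nfkbia rose, and Tnfaip3, the deubiquitinase A20, was added by the block (0.31, limma adjusted p 0.0068 against 0.659). Among 23 mRNA decay factors Zfp36l1, Zc3h12c and Zfp36l2 rose. Zc3h12a, or Regnase-1, stood at 0.60 ± 0.16 and was not called in either fit.

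Of the 20 functional lists, 8 held no called gene. Only 0.387% of all tested genes were called, so a list of this size without a call is not set apart from them. Members with larger values that were not called in either fit included Il15ra at 0.65 ± 0.18, Il10ra at -0.45 ± 0.16 and Tlr8 at 0.43 ± 0.16. In 35 cytokine and chemokine receptors, the members with the brightest probe sets, C3ar1 and Il10rb, stood at -0.03 and -0.01. In 21 SOCS proteins and tyrosine phosphatases Ptprc stood at 0.03 and Ptpn6 at -0.08, and Socs2 was called only with the block (0.71, limma adjusted p 0.0191 against 0.999). In 24 genes of cell death Mcl1 stood at 0.11 and Gadd45b at -0.14. Among 24 genes of the receptor and its chaperones Hspa8 stood at 0.02 and Hsp90aa1 at -0.06. In 27 Toll-like receptor signalling genes Tab2 stood at -0.03 and Tollip at -0.004. In 30 interferon-stimulated genes Trim30a and Rsad2 both stood at -0.14, and in 23 uptake and scavenger genes Cd36 stood at 0.07 and Mrc1 at -0.04. In 27 genes of glucose handling and hypoxia Gapdh and Ldha stood at -0.04. The 27 include Pigq and Eno1b, which were matched by synonym to the listed names Gpi1 and Eno1, so the Pigq entry is not a reading of glucose handling. Of the 51 called genes 23 were in a functional list and 28 in none.

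**Figure D3:**
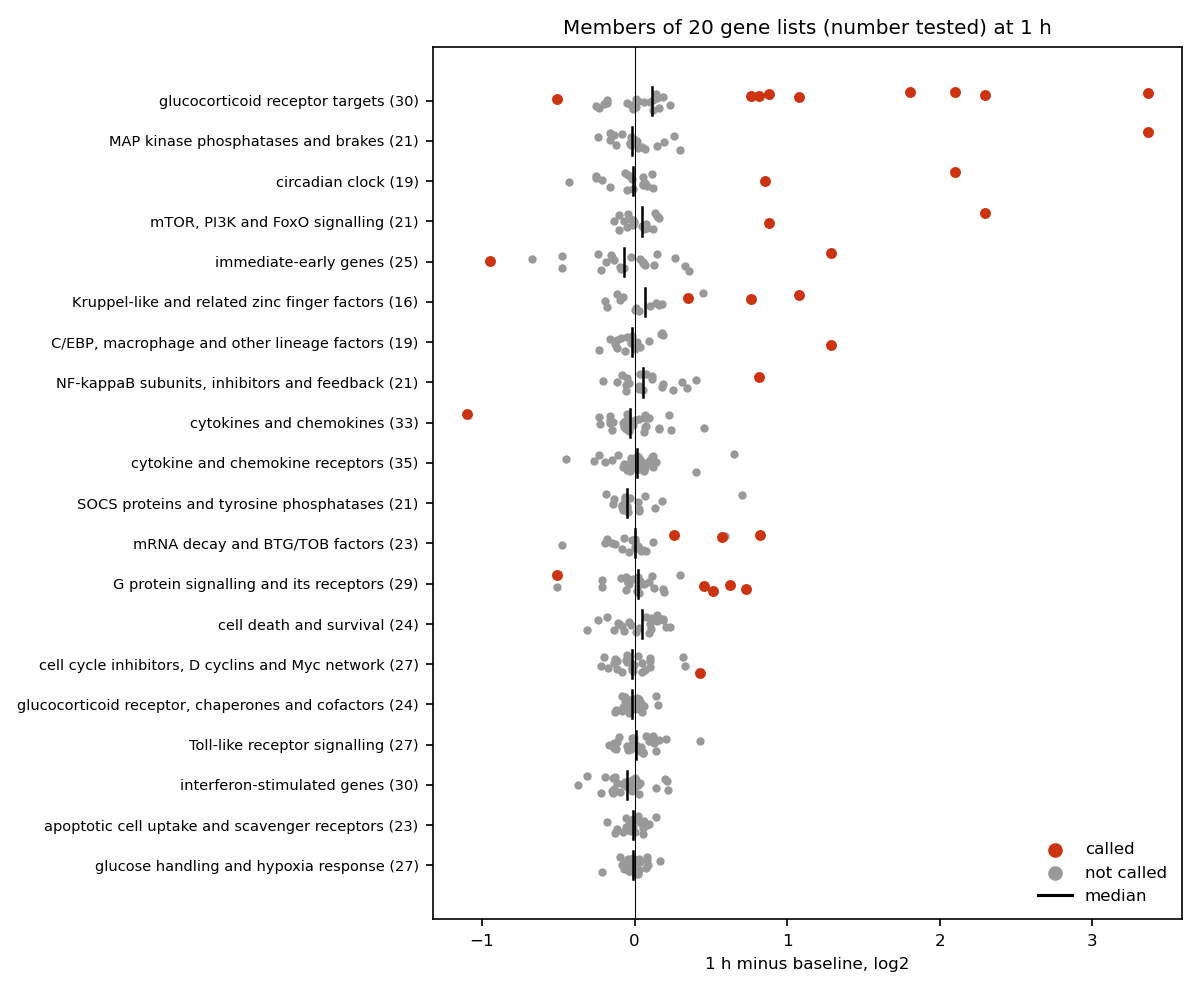
Log2 change at 1 h (x axis) of the tested members of 20 gene lists (y axis, number tested in brackets); red points are called genes, grey points are not, and the black line is the list's median. The target list, with 8 called members above 0, has a median of 0.11, and the other medians lie between -0.07 and 0.07.

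The levels of the 51 genes at the later times are given beside those at 1 h. All changes from baseline share the 3 baseline arrays, so their likeness is no separate result. Dusp1 stood at 3.36 at 1 h and at 2.95, 2.99, 2.83 and 2.29 at 2, 4, 10 and 24 h. Ddit4 stood at 2.30 at 1 h and at 3.62, 3.98, 3.88 and 3.52 later. The first was at its largest at 1 h and the other at 4 h. Klf9, at 0.76 at 1 h, stood at 1.97, 2.43, 2.42 and 2.45, and Jdp2, at 0.70, at 1.55, 1.96, 1.96 and 2.23. In both, every later value was larger than the one at 1 h. Ptger4, at 0.45 at 1 h, stood at 0.02, 0.03, 0.08 and -0.17, none of them called. Tnf, at -1.10, stood at -1.41, -1.45, -0.48 and -0.70, and Ier3, at -0.95, stood at -0.95, -0.79, 0.02 and 0.14.

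The 2 h and 1 h arrays were also compared directly. Of the 51 genes 25 differed, beside 1.12% of all tested genes; 23 had moved further from baseline and 2 back towards it. The 2 that moved back were Dusp1, at -0.42 ± 0.09 (limma adjusted p 0.0181), and Ptger4, at -0.43 ± 0.08 (limma adjusted p 0.00249). The steps of Rnf169 and Ddit4 were the largest onward ones, at 1.37 ± 0.07 and 1.33 ± 0.19. Rgs2 and Enc1 fell further, by 0.41 ± 0.08 and by 0.60 ± 0.12 on the log2 scale. Between 24 h and 1 h 27 of the 51 differed, beside 11.5% of all tested genes, with 16 further from baseline and 11 nearer to it or on its other side. The 1 h arrays chose the genes and enter these differences, so the shares of members are a description.

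**Figure D4:**
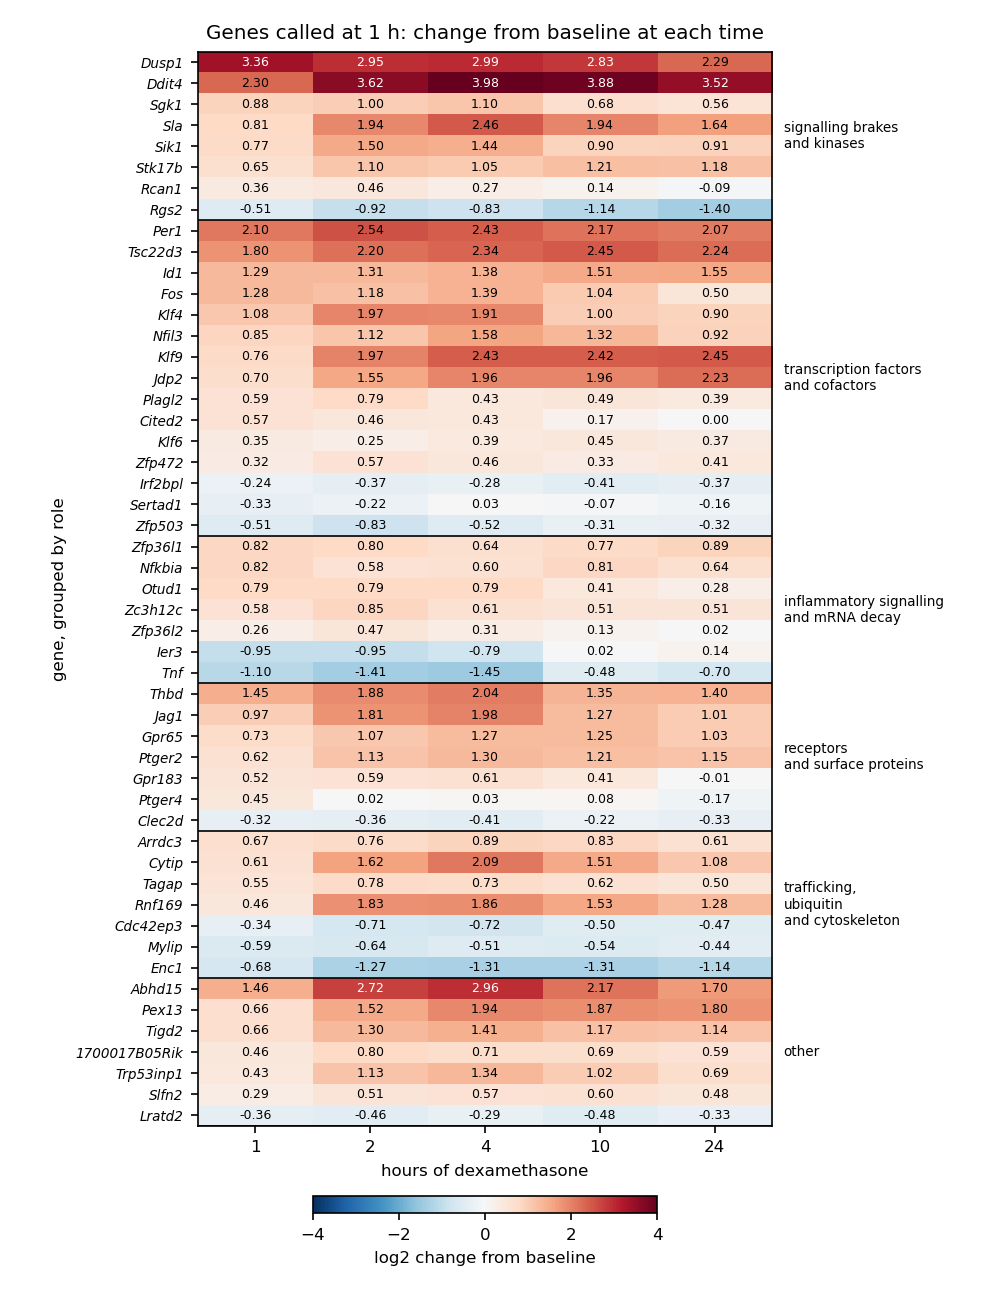
Log2 change from baseline of the 51 genes called at 1 h (rows, grouped by role) after 1, 2, 4, 10 and 24 h of dexamethasone (columns, 3 arrays each against the same 3 baseline arrays). Red is higher and blue lower; Ddit4 reaches 3.98 at 4 h, while Ptger4 stands at 0.02 by 2 h.

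A second probe set on the array gave another reading of the same RNA for 25 of the 51 genes. They had 33 further probe sets, of which 31 passed the filter on dim probe sets and were tested. Some of the 31, in both directions, had baseline means below the background level of 3.81. Of the 31 tested, 28 moved in the same direction, 13 of them called when every probe set was tested. In that test 104 of all 31421 probe sets were called. The counts come from the RNA that chose the genes and are a description. The 3 in the opposite direction belonged to Abhd15 (-0.13), Klf9 (-0.02) and Plagl2 (-0.03) and were not called. Their baseline means were 3.46, 4.19 and 3.62, and those of Abhd15 and Plagl2 were below background. Sla gave 1.01 ± 0.10 on its second probe set, Stk17b 0.68 ± 0.07 and Klf9 1.04 ± 0.12 and 0.85 ± 0.07 on 2 others. The second probe set of Trp53inp1 gave 0.02 ± 0.22, that of Rcan1 0.12 ± 0.22 and that of Irf2bpl -0.17 ± 0.15. With the probe set of largest variance in place of the brightest, 14 of the called genes lost their calls, among them these 3 and Klf6, at 0.25 (limma adjusted p 1).

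Not all calls were equally firm. Of the 51 genes 28 kept their call under all 21 alternatives that set no minimum size of change, among them Dusp1, Ddit4, Per1, Tsc22d3, Fos, Klf4, Nfkbia, Tnf and Ier3. Leaving out 1 of the 6 arrays ended the call of 15 genes in at least 1 fit, and 7 to 10 genes were lost per array left out. Zfp472 was lost without any 1 of the 6 arrays, with limma adjusted p from 0.0669 to 0.314. Clec2d (0.143 to 0.248) and Plagl2 (0.0612 to 0.345) kept their calls only without baseline replicate 1, and Irf2bpl (0.0637 to 0.373) only without 1 h replicate 2. Jag1 (limma adjusted p 0.0607 to 0.254) and Zfp36l2 (0.105 to 0.141) were lost unless the array left out was replicate 2 of either group. Rcan1 (0.162 to 0.314) was kept only without baseline replicate 2 or 1 h replicate 3, Sertad1 (0.137 to 0.409) only without baseline replicate 3 or 1 h replicate 2, and Lratd2 (0.0637 to 0.296) only without 1 h replicate 1 or 3. The call of 1700017B05Rik (0.0581 to 0.226) was kept only without baseline replicate 1 or 1 h replicate 3. Ptger2 (0.0818 to 0.122) was lost without baseline replicate 3, 1 h replicate 1 or 1 h replicate 2, and Slfn2 (0.0574 to 0.0684) without baseline replicate 1 or 1 h replicate 3. Arrdc3 was lost without 1 h replicate 2 (limma adjusted p 0.0818), and Cdc42ep3 (0.0598) and Zc3h12c (0.0732) without 1 h replicate 3. The other 8 genes kept their calls in those fits but lost them elsewhere. With the probe set of largest variance Pex13 stood at 0.46 (limma adjusted p 0.588), Ptger4 at 0.55 (0.632), Rnf169 at 0.47 (0.814), Rgs2 at -0.40 (0.121), Klf6 at 0.25 (1) and Trp53inp1 at 0.02 (1). In the same order, these probe sets had baseline means of 3.27, 4.48, 4.92, 10.32, 9.74 and 5.23. The one for Pex13 lay below background. With the mean of a gene's probe sets, smaller changes were found for Abhd15 (0.67, still called), Jag1 (0.63), Plagl2 (0.37), Rgs2 (-0.29), 1700017B05Rik (0.24) and Trp53inp1 (0.23). That mean counts dim probe sets as much as bright ones. At baseline a further probe set of Abhd15 stood at 3.46, of Jag1 at 3.84 and of Plagl2 at 3.62, against a background level of 3.81. Enc1 was also lost with the mean of its probe sets (limma adjusted p 0.0611) and Sik1 with only the 6 arrays in the fit (0.0778).

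At the threshold, the genes just inside were Clec2d, Sertad1 and Zfp472, with limma adjusted p of 0.0409, 0.0452 and 0.0498. Just outside were Wee1, a cell cycle kinase, at 0.41 ± 0.09 (limma adjusted p 0.0584), Prdm1, the repressor Blimp-1, at -0.65 ± 0.15 (0.0666), and the lysophosphatidic acid receptor Lpar6 at -0.51 ± 0.12 (0.0667). All 3 were called with the replicate block, at 0.00447, 0.0329 and 0.00402. The 1 h mean of Prdm1, 3.79, was not above the background level of 3.81, so the size of its difference is not measured well.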

How the data were processed

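Each of 18 biotin-labelled RNA samples was hybridised to its own Affymetrix array. The deposited values are linear intensities, 1 for each probe set on each array; the submitters' processing notes name RMA and the affy package without versions. RMA makes the arrays' distributions alike, which removes any shift common to most genes. Intensities ran from 5.37 to 15224 and log2 was taken. The number of arrays limits the precision.

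In baseline replicate 1 an evenly stepped run of 211 probe sets, found by a constant log2 step within 1e-06, was left out on all arrays. Of 45141 probe sets 28898 had 1 gene symbol, 551 several, 15588 none and 104 were controls; 28689 matched RefSeq by Entrez ID and 0 symbols changed. Each of 17020 genes was represented by its brightest probe set, by the mean of the 18 arrays. Genes were tested where 3 or more arrays were at or above their own 40th percentile. The background level was the 95th percentile of 23 control probe sets. The tested genes above it made up 74 to 76.2% per array, and arrays correlated at 0.9956 or more.

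Tests used limma 3.58.1 in R 4.3.3 (lmFit over all 18 arrays with 1 mean for each of 6 groups, eBayes with an intensity trend), two-sided, Benjamini-Hochberg adjusted over all tested genes within each contrast. The design text calls the arrays biological replicates, while the labels do not tie an array to a mouse; p-values then measure the spread between these samples. Same-numbered baseline and 1 h arrays deviated together (correlations 0.29, 0.164 and 0.271, against -0.227 to -0.038 for other pairs). Deviations from a group's mean cancel out within it, so the values for other pairs follow largely from these and add no support. The number was taken as a pairing, from the data, but the main fit leaves it out. Blocked values are printed for the named genes whose call the block changed. The other genes called only with the block are not named.

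All called genes were named, with array values for the 10 largest rises and 6 largest falls whose groups do not overlap. Also named were called list members or, where there were none, the 2 with the brightest probe sets, as well as Nr3c1 and Fkbp5 and 3 genes on each side of the threshold; array values of Sgk1, Nfkbia, Ptger2 and Ptger4, and some genes that were not called or were called only with the block, were added after their values were seen. The members and lists were chosen with earlier results of these data known. The scripts were tested on simulated data. Alternatives covered the block, arrays used, trend, robust variance, probe set choice, filter, stepped values, scaling, adjustment, minimum size and leaving out each array.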

Additional observations from a re-analysis of the deposited data

Results flagged for a closer look

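The change from baseline differed between 24 h and 1 h, by limma's test of the 24 h against the 1 h arrays, for 27 of the 51 genes called at 1 h. The 1 h arrays also chose these genes, so the differences, given as 24 h minus 1 h in log2, are descriptions. Among genes that had risen, the value was higher at 24 h for Klf9 by 1.69, Jdp2 by 1.53, Ddit4 by 1.22, Pex13 by 1.14, Sla by 0.83 and Rnf169 by 0.82. It was also higher for Stk17b by 0.53, Ptger2 by 0.52, Tigd2 by 0.48, Cytip by 0.46, Tsc22d3 by 0.44, Gpr65 by 0.30, Trp53inp1 by 0.26 and Slfn2 by 0.19. The difference was -1.08 for Dusp1, -0.79 for Fos, -0.62 for Ptger4, -0.57 for Cited2, -0.53 for Gpr183, -0.51 for Otud1, -0.45 for Rcan1, -0.32 for Sgk1 and -0.24 for Zfp36l2. Among genes that had fallen, it was -0.89 for Rgs2 and -0.46 for Enc1, and 1.08 for Ier3 and 0.39 for Tnf.

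When every probe set was tested, 104 of 31421 were called at 1 h. Of the called ones 40 had no single gene symbol in the annotation used here, 36 higher and 4 lower, of 9937 such probe sets tested. Of these 40, 39 had no symbol and 1 had several. The largest rise among them was 2.68 ± 0.17 (limma adjusted p 4.12e-10), from a mean of 4.19 at baseline to 6.88 at 1 h, and its gene is unnamed here.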

How the results depend on the processing

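Of the 72 genes named by the rule, recomputed under 23 alternatives (71 of them under the 60th percentile filter), 0 reversed direction while called. Genes named beyond the rule were not recomputed under each alternative. Against 51 genes called, 40 higher and 11 lower, the replicate block gave 93, 63 and 30, and the block with only the 6 arrays gave 103, 64 and 39. Adjusting over the 5 treated times together gave 106, 78 and 28. Testing every probe set gave 104 probe sets, 89 of them higher. The probe set of largest variance gave 5 lower genes. Testing against a fold of 1.2 gave 23, 21 and 2, and asking for a log2 change of at least 1 gave 10, 9 and 1. Leaving out 1 array gave 41 to 50 genes, 34 to 42 higher and 7 to 10 lower; the 7 lower genes came without baseline replicate 2 and without 1 h replicate 3. Other settings gave 40 to 51 genes. The cause of these differences was not tested, except that a minimum size and the count of probe sets change what is counted. With 3 arrays per group, dim genes are the least precise: Sik1, Abhd15, Ddit4, Jag1 and Id1 had baseline means of 4.58 to 4.97 log2, against a background level of 3.81.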
